A study of Saccharomyces cerevisiae with 71 samples.

Results

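Combined removal of tryptophan, phenylalanine and tyrosine (Trp/Phe/Tyr) was 1 of the amino acid depletions in a yeast study of tRNA charging, the share of a tRNA that carries its amino acid. The arrays were chosen by their titles: 8 of the 71 arrays in the series carry the cells of this medium, 3 of them reference arrays. The other 5 arrays hold 4 depleted cultures of the 26 in the charging experiments, where a culture is 1 strain sampled at 1 time in 1 medium. All 41 tRNA probes were used. Each probe is called by its amino acid with a number, and the removed amino acids have 1 probe each, Trp-3, Phe-3 and Tyr-3.

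The mutant strain was gcn2Δ (WY799), whose GCN2 gene is disrupted with URA3, and it was set against the isogenic wild-type strain (WY798). Both are prototrophic yeast of mating type MATα, so each can make the 3 removed amino acids itself; how many isolates were used is not stated. The gcn2Δ and wild-type cells were grown in synthetic complete medium with glucose, collected, and moved to the same medium without Trp, Phe and Tyr for 15 or 60 min. The 0 min reference of each strain was in complete medium. Whether a strain was sampled repeatedly from 1 flask is not said in the sources used here, and no condition had a replicate culture. Precision is limited by the number of arrays.

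Trp, Phe and Tyr are made in yeast by 1 shared route, which runs from the first enzyme, DAHP synthase, to chorismate and then branches. The DAHP synthase isozymes Aro3p and Aro4p are inhibited by Phe and by Tyr, so that the supply of these end products feeds back on the route that also makes Trp. Gcn2p is a kinase that senses uncharged tRNA and raises translation of Gcn4p, the activator of amino acid biosynthetic genes, among them genes of the aromatic route.

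The assay compares charged with total tRNA. Periodate destroys the free 3′ end of uncharged tRNA, the protected charged tRNA is then labelled with 1 dye and total tRNA with the other, and both are hybridized to 1 array. The deposited value is the charged over total ratio of a culture relative to that of its own 0 min reference. Each array was scaled to a median of 1. A value of 1 thus means the change of the median tRNA of that array, and a change shared by all tRNAs would not show. Values below or above the reference are meant in that sense. The deposited value is therefore a relative charging level and not the percent of a tRNA that is charged. All 123 reference values were exactly 1, and the median of every depleted array was also 1. Only gcn2Δ at 60 min was hybridized in both dye orientations, and its arrays were averaged as 1 culture; the other depleted cultures rest on 1 array with total tRNA in Cy3.

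Charging of tRNAPhe lay below the 0 min reference in every culture of both strains. The deposited Phe-3 ratio was 0.760 in gcn2Δ at 15 min, 0.687 on the Cy3 array and 0.643 on the Cy5 array of gcn2Δ at 60 min, 0.636 in wild type at 15 min and 0.669 in wild type at 60 min. On the log2 scale the gcn2Δ cultures were at −0.40 and −0.59 at 15 and 60 min, and the wild-type cultures at −0.65 and −0.58. The values of the strains overlapped, and lowest and highest differed by 0.26. Phe-3 was the lowest of the 41 tRNAs in gcn2Δ at 60 min and in wild type at 15 min, and ranked 6 from the lowest in the remaining cultures.

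Charging of tRNATyr was also below the reference in each culture but was spread more widely. The Tyr-3 ratio was 0.640 in gcn2Δ at 15 min, 0.754 and 1.03 on the Cy3 and Cy5 arrays of gcn2Δ at 60 min, 0.835 in wild type at 15 min and 0.512 in wild type at 60 min. The log2 changes in gcn2Δ were −0.64 at 15 min and −0.18 at 60 min, against −0.26 at 15 min and −0.96 at 60 min in wild type. The gcn2Δ strain was thus lower at 15 min and the wild-type strain lower at 60 min. The Cy3 and Cy5 arrays of gcn2Δ at 60 min lay on opposite sides of 0 for this tRNA, at −0.41 and 0.04.

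Charging of tRNATrp lay nearest to the reference, with a mean over strains and times of −0.19, against −0.51 for Tyr-3 and −0.55 for Phe-3. The Trp-3 ratio was 0.948 in gcn2Δ at 15 min, 0.796 and 0.668 on the Cy3 and Cy5 arrays of gcn2Δ at 60 min, 0.852 in wild type at 15 min and exactly 1 in wild type at 60 min, where Trp-3 was itself the array median. The log2 changes were −0.08 and −0.46 in gcn2Δ at 15 and 60 min, and −0.23 and 0.00 in wild type. In gcn2Δ the later culture was lower, and in wild type the earlier one. From the lowest of the 41, Trp-3 ranked 2 in gcn2Δ at 60 min and 21 in wild type at 60 min.

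**Figure D1:**
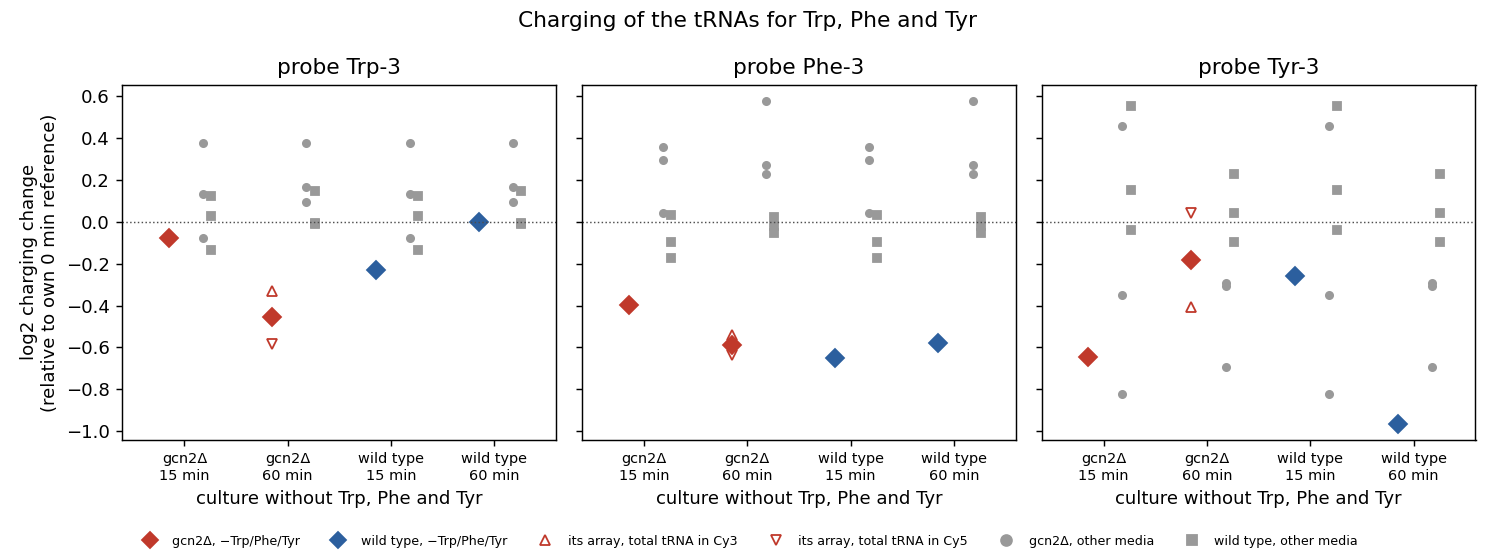
Log2 charging change of Trp-3, Phe-3 and Tyr-3 relative to the own 0 min reference (vertical axis) in the 4 cultures without Trp, Phe and Tyr (diamonds), with the Cy3 and Cy5 arrays of gcn2Δ at 60 min as open triangles. Grey points are the 6 cultures at the same time from media that keep Trp, Phe and Tyr; Phe-3 lies below all of them in each culture, Trp-3 only in gcn2Δ at 60 min and wild type at 15 min, and Tyr-3 only in wild type at 60 min.

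To set these changes against the spread among cultures, each culture was compared with the 6 cultures at the same time from 3 experiments (His removed, Arg removed, and Arg removed with ornithine added; both strains), whose media keep all 3 amino acids. limma's moderated test was used with Benjamini-Hochberg adjustment over the 41 tRNAs, and an adjusted p under 0.05 was called. This takes the single culture to be as variable as those 6. Most of the 6 average a pair of arrays, whereas every Trp/Phe/Tyr culture but gcn2Δ at 60 min rests on 1 array. The SE and p values for the cultures with 1 array can therefore be too small. An exact permutation test of 1 culture against 6 cannot fall below 0.143. Across all 12 cultures of those media and both times, Phe-3 lay between −0.17 and 0.58, Trp-3 between −0.14 and 0.38, and Tyr-3 between −0.82 and 0.55. Phe-3 was the one tRNA of the 41 (2.44%) that lay below all 12 in each of the Trp/Phe/Tyr cultures, and 0 of the 41 (0%) lay above all 12 in each. Trp-3 was below all 12 in 2 of the 4 cultures and Tyr-3 in 1.

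None of the cognate tRNAs was called in a single culture when it was set against all 6. In gcn2Δ at 60 min, Phe-3 differed from the mean of the 6 cultures by −0.76 ± 0.24 (SE) and Trp-3 by −0.58 ± 0.16, both with an adjusted p of 0.328 in limma, and Tyr-3 by 0.00 ± 0.31. In gcn2Δ at 15 min the differences were −0.47 ± 0.22 for Phe-3, −0.15 ± 0.19 for Trp-3 and −0.64 ± 0.47 for Tyr-3, with adjusted p values of 0.583, 0.675 and 0.665 in limma. Wild type at 15 min differed by −0.73 ± 0.22 for Phe-3 (adjusted p = 0.435 in limma), −0.31 ± 0.19 for Trp-3 and −0.25 ± 0.47 for Tyr-3. Wild type at 60 min differed by −0.75 ± 0.24 for Phe-3 (adjusted p = 0.144 in limma), −0.78 ± 0.31 for Tyr-3 (adjusted p = 0.216 in limma) and −0.13 ± 0.16 for Trp-3. When wild type at 60 min was set against the wild-type cultures alone, 11 tRNAs were called, among them Tyr-3 (adjusted p = 0.015 in limma) and Phe-3 (adjusted p = 0.029 in limma). The intervals against all 6 cultures were wide, and the 95% interval for Tyr-3 in gcn2Δ at 15 min ran from −1.73 to 0.46.

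Of all 41 tRNAs, 0 (0%) were called in gcn2Δ at 15 min, in gcn2Δ at 60 min and in wild type at 15 min, where 2, 3 and 1 had an unadjusted p under 0.05 in limma. In wild type at 60 min 2 of 41 (4.88%) were called, neither of them cognate, and 9 had an unadjusted p under 0.05. The position relative to the 6 cultures was also counted. In gcn2Δ, 1 of the 3 cognate tRNAs at 15 min and 2 at 60 min lay below all 6, against a background of 9 of 41 (22.0%) at each time. In wild type 2 of the 3 lay below all 6 at each time, against 9 of 41 (22.0%) at 15 min and 7 of 41 (17.1%) at 60 min. The share of tRNAs above all 6 was 14.6% in gcn2Δ at 15 min, 19.5% in gcn2Δ at 60 min, 4.88% in wild type at 15 min and 29.3% in wild type at 60 min, and held no cognate tRNA.

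With 15 and 60 min averaged in each strain, the Trp/Phe/Tyr experiment gave 2 values to set against 6. Phe-3 was at −0.49 in gcn2Δ and −0.62 in wild type, against −0.10 to 0.31 in the media without His or Arg, where gcn2Δ and wild-type values are pooled. The difference was −0.68 ± 0.14 (SE), a 1.60-fold lower charging ratio, with an adjusted p of 0.053 in limma and an exact two-sided permutation p of 0.0357, the smallest that 2 against 6 allows. Trp-3 was at −0.27 in gcn2Δ and −0.12 in wild type, against −0.07 to 0.27, and differed by −0.29 ± 0.10 (adjusted p = 0.243 in limma, exact permutation p = 0.0357). Tyr-3 was at −0.41 in gcn2Δ and −0.61 in wild type, against −0.76 to 0.30, so that its groups overlapped (difference −0.42 ± 0.26, adjusted p = 0.418 in limma, exact permutation p = 0.286). The low end of that range is gcn2Δ without Arg, where Tyr-3 was at −0.82 at 15 min and −0.70 at 60 min. The study reports lowered tRNATyr charging in that culture, so it is not an unaffected comparison for Tyr-3. In gcn2Δ without His, Tyr-3 was at −0.35 and −0.29. Phe-3 was called with arrays centred on the 38 non-cognate probes (adjusted p = 0.046 in limma), without gcn2Δ of the Arg experiment (0.047), without wild type of the His experiment (0.040) and with strain as a block (−0.68 ± 0.080, SE, adjusted p = 0.0025), a fit chosen after seeing the data. It was not called in the other 8 alternatives (adjusted p up to 0.270). The main fit, without the strain block, called no tRNA by limma in this comparison (0 of 41, 0%). In it 3 tRNAs had an unadjusted p under 0.05. With the strain block Phe-3 alone was called, and again 3 had an unadjusted p under 0.05. Trp-3 (adjusted p = 0.277 in limma) and Tyr-3 (adjusted p = 0.404 in limma) were not called with the block. Both strains of an experiment may share more than the medium, so the p values can be too small. The exact permutation test was run on the 3 cognate tRNAs only, so no share over the 41 stands beside it. Full separation from the 6 values was not confined to cognate tRNAs. For Thr-7, Leu-14, Arg-11 and Pro-6 both strain values also lay beyond all 6. Their means over both strains were 0.28, 0.16, 0.0094 and −0.35. The nearest of the 6 values were 0.098, 0.091, −0.055 and −0.23. Single cultures of Thr-7 did overlap, since wild type at 15 min and gcn2Δ without Arg at 15 min were both at 0.13.

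Charging of tRNATrp without Trp, Phe and Tyr was then compared with that in the medium that lacked Trp alone, for the same strain and time. Arrays with total tRNA in Cy3 were used, because the Cy5 arrays of the Trp experiment likely hold inverted ratios: the deposited Trp-3 value of gcn2Δ at 60 min was 0.0709 on the Cy3 array and 14.4 on the Cy5 array. In gcn2Δ at 60 min the Trp-3 ratio was 0.796 without Trp, Phe and Tyr, against 0.0709 without Trp alone, and the log2 changes were −0.33 and −3.81. The difference of 3.48 ± 0.21 (SE), an 11.2-fold higher ratio in the medium that also lacked Phe and Tyr, was called with an adjusted p of 5.0e-05 in limma and in all 13 alternatives (adjusted p up to 0.0063). In gcn2Δ at 15 min Trp-3 was at −0.08 without the 3 amino acids, against −0.94 without Trp alone (difference 0.86 ± 0.35, adjusted p = 0.790 in limma). In wild type it was at −0.23 against −0.98 at 15 min (0.75 ± 0.35, adjusted p = 0.619 in limma) and at 0.00 against −0.13 at 60 min (0.13 ± 0.21, adjusted p = 0.975 in limma). Trp-3 was thus higher in the medium lacking all 3 amino acids in each of the 4 pairs, and the size of that difference was called only in gcn2Δ at 60 min. The media without His or Arg gave Trp-3 values between −0.09 and 0.24 on Cy3 arrays at 60 min.

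The strain dependence of that difference was tested directly, in a comparison chosen after the values were seen. The gcn2Δ minus wild-type difference at 60 min for Trp-3 was −0.33 without Trp, Phe and Tyr, against −3.68 without Trp alone. These differed by 3.35 ± 0.49 (SE; adjusted p = 0.0225 in limma, 1 of 41 tRNAs called, 2.44%). The spread in that test came from 3 experiments, and without the His experiment the adjusted p was 0.0528.

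For the other cognate tRNAs the order of the media was the reverse for Phe-3 and mixed for Tyr-3. Phe-3 was lower without Trp, Phe and Tyr than without Trp alone in each pair. It was at −0.40 against 0.32 in gcn2Δ at 15 min, −0.54 against 0.22 in gcn2Δ at 60 min, −0.65 against 0.41 in wild type at 15 min and −0.58 against 0.51 in wild type at 60 min. The differences lay between −0.72 and −1.09, with adjusted p values of 0.867, 0.276, 0.534 and 0.231 in limma. Tyr-3 differed by −0.05 and 0.28 in gcn2Δ at 15 and 60 min and by 0.20 and −0.72 in wild type, with an SE of at least 0.62. Background counts of called tRNAs were 0 of 41 (0%) in gcn2Δ at 15 min and in wild type at both times, with 2, 2 and 4 at an unadjusted p under 0.05, and 2 of 41 (4.88%) in gcn2Δ at 60 min, with 6 under 0.05.

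The other tRNA called in gcn2Δ at 60 min was Met-6, one of the Met probes, at 0.02 without Trp, Phe and Tyr, against −1.84 without Trp alone (difference 1.86, adjusted p = 0.022 in limma). That call was lost in 4 of 13 alternatives, among them leaving out wild type without Arg (adjusted p = 0.052) and averaging all arrays with the Cy5 ones turned (difference 1.71, adjusted p = 0.243). Pro-5 was at −0.11 against −1.48 and was not called (adjusted p = 0.285 in limma). Over the 38 non-cognate probes the gcn2Δ cultures of these media at 60 min correlated at r = −0.02, and the wild-type cultures at r = 0.55. The 38 probes of an array are not independent, and these correlations are given as descriptions.

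**Figure D2:**
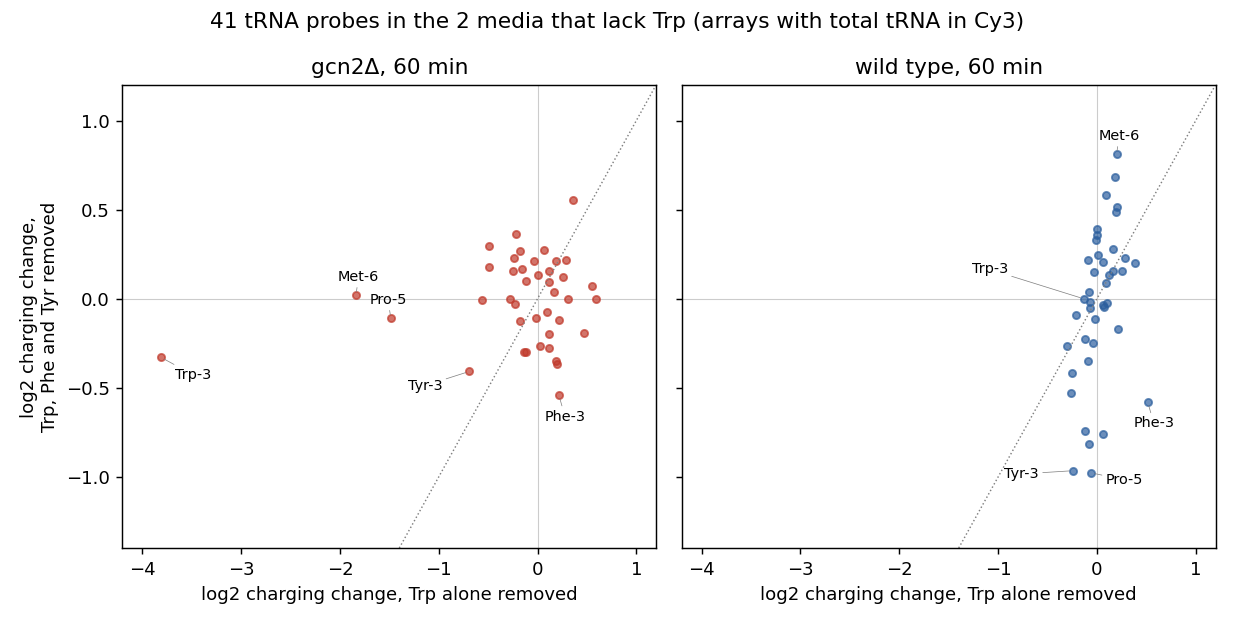
Log2 charging change of the 41 tRNA probes without Trp, Phe and Tyr (vertical axis) plotted against that without Trp alone (horizontal axis) at 60 min on Cy3 arrays, 1 point per probe, with gcn2Δ on the left, wild type on the right and the dotted line marking equal values. In gcn2Δ Trp-3 was at −0.33 on the vertical and −3.81 on the horizontal axis, whereas in wild type it was at 0.00 and −0.13.

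The strains were also compared within the Trp/Phe/Tyr experiment, against the strain differences in those same 3 experiments without His or Arg (1 experiment against 3, for which an exact permutation p cannot fall below 0.25). At 15 min 0 of 41 tRNAs (0%) were called and 0 had an unadjusted p under 0.05 in limma. The gcn2Δ minus wild-type differences for Trp-3, Phe-3 and Tyr-3 were 0.15, 0.26 and −0.38, against means of 0.14, 0.31 and −0.46 in the other experiments. At 60 min 0 of 41 (0%) were called, but 12 had an unadjusted p under 0.05, and the smallest adjusted p in limma was 0.140. Without the Arg with ornithine experiment 3 were called, Asp-3, Glu-3 and Pro-5. Trp-3 was lower in gcn2Δ than in wild type by 0.46 without Trp, Phe and Tyr, whereas the other experiments had gcn2Δ higher by 0.11 to 0.23 (difference −0.63 ± 0.13, SE). Tyr-3 ran the other way: gcn2Δ was higher by 0.78, against a mean of −0.49 (difference 1.27 ± 0.36, adjusted p = 0.156 in limma). That mean includes the Arg experiment, at −0.92, and the highest of the 3 experiments was at −0.21. The study reports lowered tRNATyr, tRNAAsp and tRNAGlu charging in gcn2Δ without Arg. The Arg experiment is thus not an unaffected comparison for Tyr-3, Asp-3 or Glu-3. For Phe-3 the strain difference was −0.01, against a mean of 0.38 (adjusted p = 0.243 in limma).

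**Figure D3:**
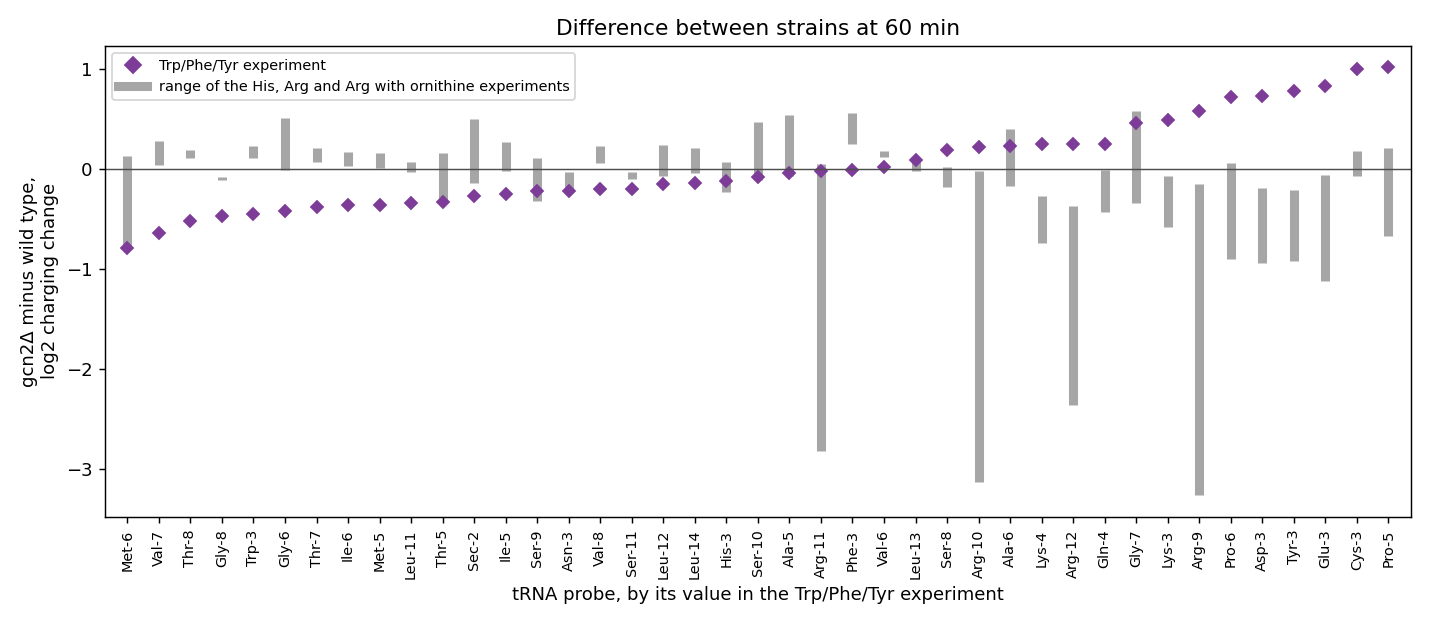
Difference between gcn2Δ and wild type in log2 charging change at 60 min (vertical axis) for the 41 tRNA probes (horizontal axis, ordered by value) in the Trp/Phe/Tyr experiment (diamonds), with grey bars for the range over 3 experiments (His; Arg; Arg with ornithine). Trp-3, at −0.46, lies below its bar and Tyr-3, at 0.78, above it; no probe was called.

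The wild-type culture at 60 min differed from the other Trp/Phe/Tyr cultures in how widely its tRNAs spread. Of its 41 probes 11 lay at least 0.5 from 0 on the log2 scale, and the SD over probes was 0.43. The numbers were 3 probes and 0.26 in gcn2Δ at 15 min, 1 and 0.21 in gcn2Δ at 60 min, and 3 and 0.31 in wild type at 15 min. Over the 12 cultures without His or Arg the SD was between 0.08 and 0.93, the highest being gcn2Δ without Arg at 60 min, so that the wild-type culture lay within that range. As it was hybridized once, its dye pair was not measured. The dye pair of gcn2Δ at 60 min differed by a median of 0.147 per probe, correlated at r = 0.61 over the 41 probes, and had the same sign for 26 of them.

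The amino acid classes differed in how many members lay below 0 in wild type at 60 min, which was not tested. Of the 8 charged tRNAs (Arg, Asp, Glu, Lys) 7 were below 0, with a median of −0.30, and of the 13 hydrophobic tRNAs (Ile, Leu, Met, Phe, Trp, Val) 1 was below 0, namely Phe-3, with a median of 0.23; the small and polar classes had medians of −0.02 and −0.03. In gcn2Δ at 60 min the counts were 3 of 8 with a median of 0.13 and 4 of 13 with a median of 0.05. Over all 41 tRNAs 20 were below 0 in wild type at 60 min and 18 in gcn2Δ at 60 min. At 15 min the charged tRNAs had 5 of 8 below 0 in gcn2Δ and 3 of 8 in wild type, and the hydrophobic ones 5 and 6 of 13. The small class (Ala, Cys, Gly, Pro) had 2 and 3 of 8 below 0 in gcn2Δ and 6 and 4 in wild type at 15 and 60 min. The polar class (Asn, Gln, His, Ser, Sec, Thr, Tyr) had 8 of 12 probes below 0 in every culture but wild type at 15 min, where it had 5. Sec-2, counted there and among the 41, was below 0 in all 4 cultures. What Sec-2 detects in this yeast is not given in the sources used here.

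The tRNAs called in wild type at 60 min were Cys-3 and Thr-7. Cys-3 was at 0.12 and 0.26 in gcn2Δ at 15 and 60 min and at −0.12 and −0.74 in wild type, and at 60 min the wild-type value differed from the 6 cultures by −0.71 ± 0.13 (SE; adjusted p = 0.031 in limma). Thr-7 was at 0.18 and 0.21 in gcn2Δ and at 0.13 and 0.58 in wild type, where it differed by 0.62 ± 0.12 (adjusted p = 0.031 in limma). Neither was called once any 1 of 5 comparison cultures was left out: gcn2Δ without His, gcn2Δ without Arg, or wild type without His, without Arg or without Arg but with ornithine (0 tRNAs called each, adjusted p of both from 0.060 to 0.101 in limma). Without the sixth, gcn2Δ without Arg but with ornithine, 3 were called, the added one being Val-7. Val-7, at 0.02 and 0.05 in gcn2Δ and at 0.00 and 0.68 in wild type, came next (adjusted p = 0.053 in limma at 60 min). The lowest tRNAs of that culture beside Tyr-3 were Pro-5 at −0.98 and Pro-6 at −0.81, and the highest was Met-6 at 0.81.

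Pro-5 was also low at 15 min, at −0.48 in gcn2Δ and −0.55 in wild type, and its gcn2Δ value at 60 min was 0.04. In the 12 cultures without His or Arg it ranged from −0.44 to 1.27, and without Trp alone it was at −1.48 on the Cy3 array of gcn2Δ at 60 min. Met-6 was at −0.16 and 0.02 in gcn2Δ and at 1.48 and 0.81 in wild type. It was the highest tRNA of wild type at 15 min, and the wild-type culture without His reached 1.48 at 15 min as well. The 12 cultures without His or Arg ranged from −0.96 to 1.48, and without Trp alone the Cy3 array of gcn2Δ at 60 min was at −1.84. Met-5, which also detects a Met tRNA, lay between −0.01 and 0.36. Glu-3 was at 0.00 and 0.42 in gcn2Δ and at 0.32 and −0.41 in wild type, and Asp-3 at −0.35 and −0.03 in gcn2Δ and −0.29 and −0.76 in wild type. Neither was called, except in the strain difference without the Arg with ornithine experiment.

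The tRNAs of the amino acids removed from the media of the comparison cultures, His and Arg, and those for Lys follow. His-3 was at 0.14 and 0.04 in gcn2Δ and at 0.00 and 0.16 in wild type. The 4 Arg probes lay between −0.33 and 0.26 in gcn2Δ and between −0.35 and 0.18 in wild type. Because the comparison cultures hold gcn2Δ without Arg, in which Arg probes reached −3.31, a change in Arg tRNAs could hardly be called. Lys-3 was at −0.12 and −0.04 in gcn2Δ and at 0.05 and −0.53 in wild type, and Lys-4 at −0.55 and 0.16 in gcn2Δ and at 0.11 and −0.09 in wild type. In gcn2Δ at 15 min Lys-4 came next to Tyr-3 from the lowest, followed by Asn-3 at −0.53, and Leu-12 was the highest at 0.31, followed by Gly-7 and Arg-9 at 0.26 each. In gcn2Δ at 60 min Gly-8 followed Phe-3 and Trp-3 from the lowest, at −0.32, and Glu-3, Ala-6 at 0.36 and Gly-7 at 0.29 were the highest. In wild type at 15 min Phe-3 and Pro-5 were followed by Ile-5 at −0.39, and Met-6 by Glu-3 and by Thr-8 at 0.30.

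**Figure D4:**
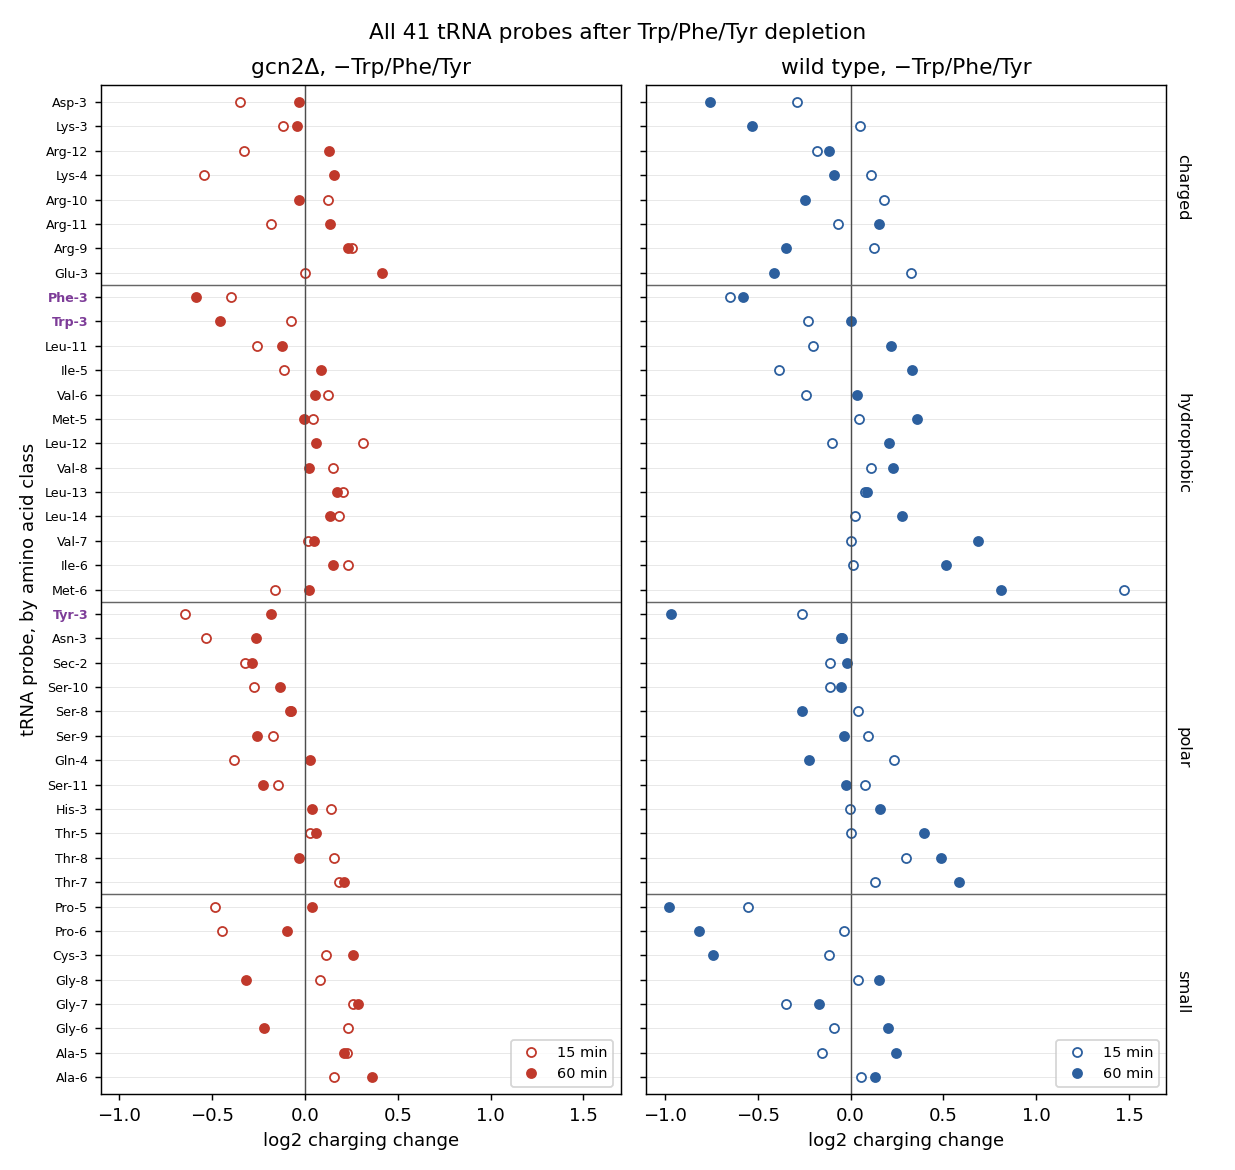
Log2 charging change (horizontal axis) of the 41 tRNA probes (vertical axis, grouped by amino acid class) without Trp, Phe and Tyr in gcn2Δ (left) and wild type (right), 1 culture per strain and time, at 15 min (open) and 60 min (filled). Phe-3 lies between −0.65 and −0.40 in all 4 cultures, and the wild-type culture at 60 min, which runs from −0.98 for Pro-5 to 0.81 for Met-6, has the largest SD over probes of the 4 (0.43).

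Over the 41 probes the 15 and 60 min cultures of gcn2Δ correlated at r = 0.44 and those of wild type at r = 0.45, pairs that share a reference. Between strains r was 0.17 at 15 min and 0.14 at 60 min. The 38 non-cognate probes of wild type at 60 min correlated with Cy3 arrays of other media at between −0.56, in wild type without Arg and without His, and 0.68, in gcn2Δ without His. The 38 probes of gcn2Δ at 15 min ranged between −0.70, with gcn2Δ without Arg but with ornithine, and 0.53. The direction of the ratios on these Cy3 arrays was kept as deposited. The labels state the dyes, but they also do so for the Cy5 arrays of the Trp experiment, so they do not settle the direction. Whether any of these Cy3 arrays holds inverted ratios was not tested. The part that movement of non-cognate tRNAs shared between arrays has in the class pattern was not tested.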

How the data were processed

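Charging was measured on 2-colour tRNA microarrays. The authors deposited a linear ratio per probe and array: charged over total tRNA divided by that of the matching reference array (strain and dye orientation), scaled to a median of 1. Scanner and background correction are not given in the sources used here. The 0 min arrays hold exactly 1. Log2 was taken without a pseudocount, each array was centred at its median, and dye-swapped arrays of 1 culture were averaged. limma 3.58.1 (lmFit, eBayes) in R 4.3.3 was run on all 41 probes with Benjamini-Hochberg adjustment; a group of 1 culture takes its spread from the comparison cultures, most of which average a pair of arrays. No test is stated in the methods. Named tRNAs are the cognate ones, Met, Arg, Asp, Glu, Lys and His, those called, and those with an unadjusted p under 0.05 in a single culture. The 3 lowest and 3 highest of each culture are named too. Leu-14 is named for its values averaged over both times, and Gly-6 beside Gly-7. Classes are those of the study's heat maps. Members and lists were chosen with earlier results of these data known. The Leu experiment was not used here. The fit was run on simulated data with independent values and, for each tRNA, the same spread in every culture. That simulation could not check how single arrays, paired strains or shared references affect the calls. Alternatives were the centring, dye orientation, comparison cultures, variance moderation and strain as a block.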

Additional observations from a re-analysis of the deposited data

Results flagged for a closer look

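Of the 41 tRNAs 2, Cys-3 and Gly-7, had 1 sign in gcn2Δ at both times and the opposite sign in wild type at both times. Both were above 0 in gcn2Δ and below 0 in wild type. Whether 2 of 41 is more than signs that vary freely would give was not tested. Cys-3 was at 0.12 and 0.26 in gcn2Δ at 15 and 60 min and at −0.12 and −0.74 in wild type, so that its mean over both times was 0.61 higher in gcn2Δ. Gly-7 was at 0.26 and 0.29 in gcn2Δ and at −0.35 and −0.17 in wild type, a mean 0.53 higher in gcn2Δ. The mean differences of Cys-3 and Gly-7 were not tested. The other Gly probes went the other way at 60 min. Gly-6 was then at −0.22 in gcn2Δ and 0.20 in wild type, and Gly-8 at −0.32 and 0.16. At 15 min gcn2Δ was higher for Gly-6 by 0.32 and for Gly-8 by 0.04.

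The difference between Trp/Phe/Tyr removal and Trp removal alone differed between the strains for Trp-3 at 60 min, by 3.35 on the log2 scale (adjusted p = 0.0225 in limma). Without Trp alone the gcn2Δ culture stood at −3.81 and the wild-type culture at −0.13.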

How the results depend on the processing

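The called difference of Trp-3 between the media lacking Trp in gcn2Δ at 60 min kept its call in all 13 alternatives, with values from 3.37 to 3.49. The number of tRNAs called in wild type at 60 min, 2 in the report, was less stable. It was 1 with centring on the 38 non-cognate probes, 1 with Cy3 arrays only, 0 without the Arg experiment, 11 with comparison cultures of the same strain, 4 with comparison cultures of both times, and 0 to 3 with 1 comparison culture left out. For both strains together it was 1 with centring on the 38 probes, 1 with strain as a block and 0 to 1 with 1 value left out, and for the strain difference at 60 min 0 to 3. For Trp/Phe/Tyr minus Trp in gcn2Δ at 60 min it was 1 with all arrays averaged, 1 with comparison cultures of the same strain, 1 with both times, and 1 to 2 with 1 culture left out. The same comparison gave 0 to 1 in wild type at 15 min and 0 to 1 for its strain difference at 60 min. The cause of these changes was not tested. Differences near 0 changed sign. Tyr-3 in gcn2Δ at 60 min, 0.00 in the report, was −0.025 with centring on the 38 probes, −0.34 with Cy3 arrays only, −0.021 without the Arg experiment, −0.086 with both times, −0.24 with the Trp experiment among the comparison cultures, and −0.10 to 0.085 with 1 culture left out. In the strain difference at 15 min Trp-3 was −0.0038 with centring on the 38 probes, −0.11 with Cy3 arrays only and −0.11 to 0.081 with 1 experiment left out. Without the Arg experiment Phe-3 there was 0.016 and Tyr-3 −0.18, and with 1 experiment left out they ran from −0.21 to 0.025 and from −0.15 to 0.56. Tyr-3 in Trp/Phe/Tyr minus Trp in wild type at 15 min was −0.0072 with all arrays averaged. Of the other results on single tRNAs, 21 alternatives lost a call and 6 gained one. The strain block, the addition of the Trp experiment to the comparison cultures and the strain difference between the media lacking Trp were chosen after seeing the data. No replicate number is shared by separate cultures in the labels. The strains of an experiment were paired in the strain differences. With 1 array for most Trp/Phe/Tyr cultures, neither culture nor array error could be measured there, and signal over background was not analysed here.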
